A study of Homo sapiens with 2 samples.

Results

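Described here were 10 human genes grouped under the inner ear's acellular matrices, the otoconia and the tectorial membrane: OC90, OTOL1, SPARCL1, OTOG, OTOGL, TECTA, TECTB, OTOA, STRC and BRICD5. No part in these matrices is claimed for BRICD5. They were taken by gene symbol from the 36601 genes listed in the count matrices, and each symbol matched 1 listed gene. Their unique molecular identifiers (UMIs, counts of captured RNA molecules) were followed across the otic epithelium and its subtypes, a keratin-rich epithelium and the non-otic lineages of inner ear organoids.

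Otoconia are calcium carbonate crystals with a protein core that lie over the utricle and saccule and load their hair cells when the head tilts. In mice, otoconin-90 (OC90) is the main core protein, and otolin-1 (OTOL1), a collagen-like protein with a C1q domain, links the core proteins into a scaffold. The tectorial membrane plays the corresponding mechanical part in the cochlea: alpha- and beta-tectorin (TECTA, TECTB) form its striated-sheet matrix around collagen fibrils, while otogelin and otogelin-like (OTOG, OTOGL) are found in the acellular membranes of both the hearing and the balance organs. Otoancorin (OTOA) attaches these gels to the apical surface of non-sensory cells. Stereocilin (STRC) links the stereocilia within a hair bundle to each other and to the tectorial membrane. SPARCL1, a relative of the matrix protein SPARC, is present in otoconia of mice and is also made by astrocytes and other cells. The role of BRICD5, named for its BRICHOS domain, is left out here.

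The data are 2 single-cell RNA libraries (10x 3' assay, version 3.1) of human organoids on day 40, 1 from the GelNB-CH group and 1 from the Matrigel group. Both came from SOX2-ntdTomato reporter cells of 1 human embryonic stem cell line, WA25, and were sorted for reporter-positive cells after 90 min in Accutase. The study thus set a dynamic click hydrogel (GelNB-CH) against Matrigel, a basement membrane extract of mouse tumour cells, as the material around the organoids. All aggregates, per the labels' protocols, had Matrigel with reduced growth factors, FGF-2, SB-431542 and BMP-4 added on day 0 and later FGF-2, LDN193189 and CHIR99021. The protocol text is the same for both libraries: it describes embedding in GelNB-CH with 0.1 wt% PEG4SH and LAP under UV light on day 11 and oDex at 0.02% on day 15, while the Matrigel embedding step and the number of organoids pooled are not given in the sources used here. A single library stands for each group and no test could be run: intervals in brackets are exact 95% intervals that cover counting error only, and a difference between the libraries cannot be told apart from a difference between 2 cultures, dissociations or sorts.

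Promoter sequences from RefSeq (build GRCh38.p14) were found for 8 of the 10 genes, all except OC90 and OTOL1. The 250 bases before the RefSeq start of 4 of them are shown: OTOGL and OTOG because the closely related genes differed in the direction of their library ratio, BRICD5 because its levels followed otic subtype, and STRC because its level was highest in hair cell-like cells. In order they are chr12:80099287-80099536 (plus), chr11:17547009-17547258 (plus), chr16:2210864-2211113 (minus) and chr15:43618801-43619050 (minus), each 5' to 3' on the gene's strand, with capitals on matches to the motifs given next.
OTOGL: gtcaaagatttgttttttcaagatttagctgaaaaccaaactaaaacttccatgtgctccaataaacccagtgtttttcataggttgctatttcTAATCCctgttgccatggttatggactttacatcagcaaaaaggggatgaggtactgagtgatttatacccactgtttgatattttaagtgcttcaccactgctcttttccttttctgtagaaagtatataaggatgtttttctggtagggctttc
OTOG: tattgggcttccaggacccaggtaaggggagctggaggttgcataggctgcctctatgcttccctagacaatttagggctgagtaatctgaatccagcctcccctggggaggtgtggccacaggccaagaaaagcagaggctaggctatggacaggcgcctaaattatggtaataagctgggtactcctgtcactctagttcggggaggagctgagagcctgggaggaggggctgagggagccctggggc
BRICD5: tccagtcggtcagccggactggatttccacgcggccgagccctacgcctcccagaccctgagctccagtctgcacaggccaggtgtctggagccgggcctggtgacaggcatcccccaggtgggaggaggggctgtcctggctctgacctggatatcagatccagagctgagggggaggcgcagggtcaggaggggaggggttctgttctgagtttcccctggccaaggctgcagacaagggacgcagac
STRC: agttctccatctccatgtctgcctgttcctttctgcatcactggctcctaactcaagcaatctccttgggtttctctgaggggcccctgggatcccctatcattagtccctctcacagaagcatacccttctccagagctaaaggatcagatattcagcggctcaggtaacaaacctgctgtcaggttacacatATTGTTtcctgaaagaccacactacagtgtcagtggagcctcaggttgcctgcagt

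The cores searched on both strands were TAATTA for homeodomain factors, GGATTA for OTX factors, AACAAT for SOX factors, AGATAA for GATA factors and CAGATG for bHLH factors, families that are used in the otic lineage; no 2 of the matches overlapped. Of all 35116 promoters in the table, 4.35% held the homeodomain core, 5.62% the OTX core, 8.98% the SOX core, 9.17% the GATA core and 12.2% the bHLH core. The OTOGL promoter shown held the OTX core on the minus strand 156 bases before the start, and the STRC promoter held the SOX core on the minus strand 56 bases before it. A second OTOGL promoter in the table held the homeodomain and GATA cores, OTOA held the SOX core, TECTA the bHLH core, and TECTB the OTX and GATA cores. OTOG, SPARCL1 and BRICD5 held none in these 250 bases. The OTOGL promoter had a GC content of 36.4%, and those of OTOG, BRICD5 and STRC had 57.2%, 65.6% and 50.0%, where the median promoter had 58.0%.

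OTOG, OTOGL and OTOA lie on chr11:17547373-17647150, chr12:80099537-80380879 and chr16:21663971-21761935 on the plus strand of GRCh38, in the GENCODE annotation. OTOL1 lies on chr3:161496808-161503942, TECTA on chr11:121101173-121191493 and TECTB on chr10:112283400-112305035, also on the plus strand. On the minus strand are OC90 (chr8:132024220-132059380), STRC (chr15:43599563-43618800), SPARCL1 (chr4:87473335-87531061) and BRICD5 (chr16:2209253-2211950). STRC and OTOA have near-identical pseudogenes, STRCP1 and OTOAP1, which the matrices do not list, and OC90, TECTA and STRC overlap annotated genes on their own strand (AC100868.1, AP000646.1 and AC011330.3) that the matrices do not list either. BRICD5 overlaps MLST8 on the opposite strand. The counts of these genes carry that uncertainty.

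GelNB-CH contributed 21743 barcodes with 247006223 UMIs and Matrigel 10912 barcodes with 178672097 UMIs, and 78 barcode sequences occurred in both. After filters and doublet removal 18253 GelNB-CH cells and 9800 Matrigel cells were kept, at medians of 8558 and 14002 UMIs per cell, so the Matrigel cells were sampled more deeply. A class was given to each cell from marker UMIs, none of them among the 10 genes. Otic epithelium, cells with EPCAM and otic markers such as PAX2, PAX8 and LMX1A, comprised 5162 GelNB-CH cells and 1959 Matrigel cells (median 11052 and 17769 UMIs). Its make-up differed: the OTX2 GSC subtype had 1001 GelNB-CH cells and 119 Matrigel cells, and the GPC5 IRX3 subtype 588 GelNB-CH cells and 532 Matrigel cells. Keratin-rich epithelium had 83 GelNB-CH cells and 27 Matrigel cells, there were 16 hair cell-like GelNB-CH cells and 12 hair cell-like Matrigel cells, and the non-otic classes held 7261 GelNB-CH cells and 5351 Matrigel cells (median 8451 and 13985 UMIs). Sorting for the reporter can set such shares, and its part in them was not tested. SOX2 itself was detected in 10.7% of GelNB-CH otic cells and 24.2% of Matrigel otic cells.

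Levels (CPM) are the UMIs of a gene in a class, scaled to 1000000 UMIs of that class. Of the 10 genes, 7 reached 10 CPM in otic epithelium: OC90, OTOGL, BRICD5, OTOL1, OTOG, SPARCL1 and OTOA. None of these 7 differed by 2-fold or more between the GelNB-CH and the Matrigel otic epithelium, where 1.96% of 10455 genes did. Smaller differences mostly ran one way, since 6 of the 7 were higher in the GelNB-CH library, where 46.9% of all genes tested were. The median log2 ratio of GelNB-CH over Matrigel was 0.23 for the 7 genes and -0.02 for all genes tested. OTOG was the exception, lower in the GelNB-CH library, and the ratios of OTOL1, OTOA and BRICD5 turned to below 1 among cells of 8000 to 16000 UMIs.

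**Figure D1:**
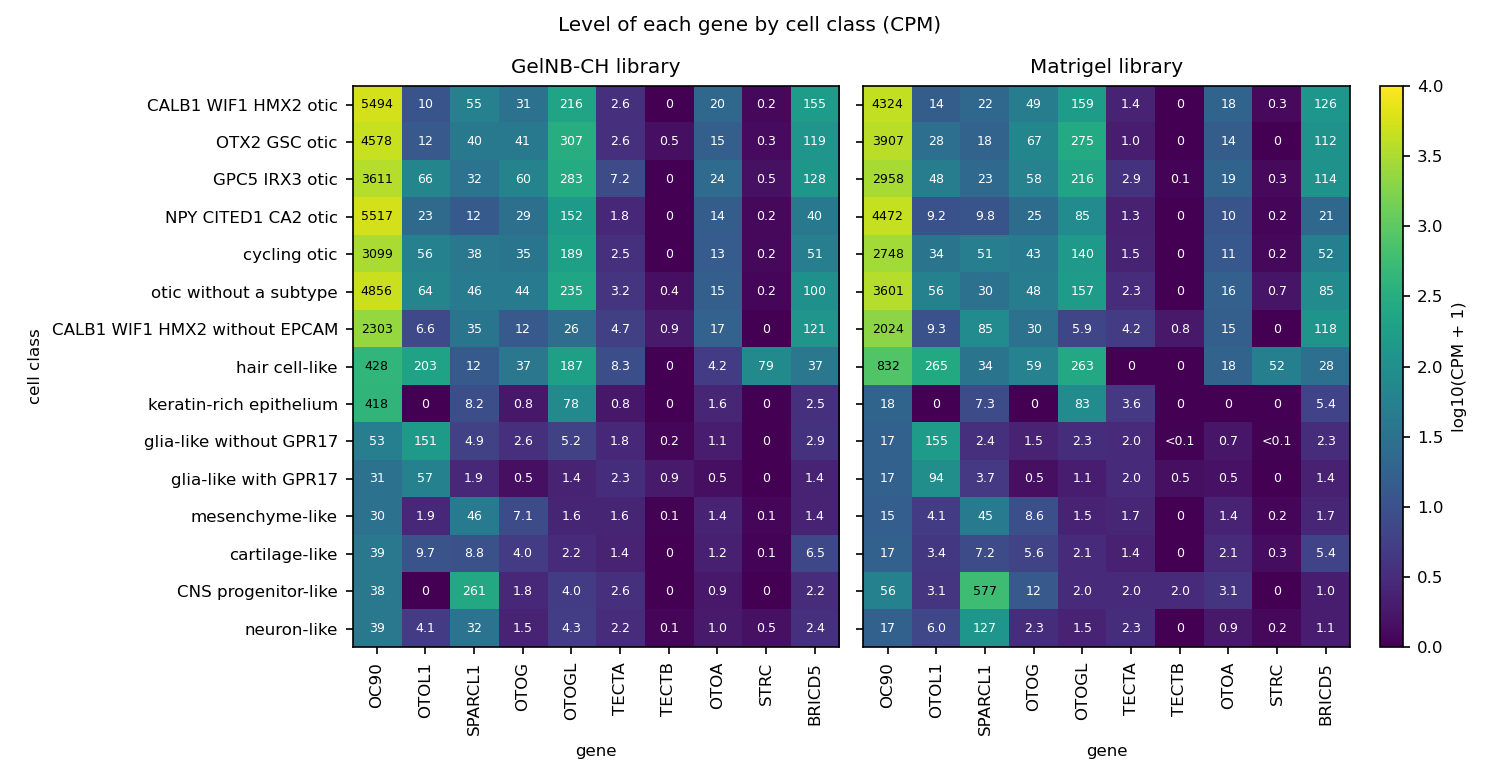
Level of each gene (horizontal axis) in each cell class (vertical axis) in the GelNB-CH library (left) and the Matrigel library (right), as log10(CPM + 1), 1 library each. OC90 is bright (high) in every otic subtype of both libraries, OTOL1 has its highest values in glia-like and hair cell-like cells, SPARCL1 in CNS progenitor-like cells and STRC in hair cell-like cells.

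OC90, the otoconial core protein gene, was found in nearly all otic cells of both libraries. It stood at 4465 CPM (302716 UMIs) in GelNB-CH otic epithelium and at 3445 CPM (144348 UMIs) in Matrigel otic epithelium, a ratio of 1.30 [1.29 to 1.30]. A UMI was found in 98.8% of GelNB-CH otic cells and 94.5% of Matrigel otic cells, and in 98.3% and 93.2% after each cell was thinned to 5000 UMIs. Detection was therefore higher in the GelNB-CH cells although they were the shallower ones. Mesenchyme-like cells, which are not known to make OC90, gave 20.5% of GelNB-CH cells and 16.3% of Matrigel cells with a UMI (median 8301 and 13323 UMIs per cell), and 11.8% and 6.43% when thinned. In the non-otic classes of at least 50 cells in both libraries the share lay between 20.3% and 25.6% of GelNB-CH cells and between 16.3% and 18.4% of Matrigel cells, and these shares are taken as the background of the OC90 values. The 49 Matrigel CNS progenitor-like cells were higher in level, at 56.3 CPM (22.4% of cells), where all Matrigel non-otic classes together had 16.4 CPM.

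Per cell, the median OC90 count was 44.3 per 10000 UMIs in GelNB-CH otic cells, with a 10th to 90th percentile of 16.5 to 82.1. Matrigel otic cells had a median of 32.7, with 5.71 to 65.0. At the lower end, 61 of 5162 GelNB-CH otic cells (1.18%) and 107 of 1959 Matrigel otic cells (5.46%) had no OC90 UMI at all. Of those 107 Matrigel cells, 59 were among the 547 otic cells without a subtype, of which they made up 10.8%; in the GelNB-CH library 36 of the 1759 such cells (2.05%) had none.

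By subtype, OC90 was highest in the NPY CITED1 CA2 cells, at 5517 CPM in GelNB-CH against 4472 CPM in Matrigel. CALB1 WIF1 HMX2 cells followed with 5494 CPM in GelNB-CH against 4324 CPM in Matrigel, and the counting intervals of these 2 subtypes overlapped in GelNB-CH but not in Matrigel. The order below them was not the same in both libraries. Otic cells without a subtype had 4856 CPM in GelNB-CH against 3601 CPM in Matrigel, and OTX2 GSC cells had 4578 CPM in GelNB-CH against 3907 CPM in Matrigel. GPC5 IRX3 cells (3611 CPM in GelNB-CH against 2958 CPM in Matrigel) and cycling otic cells (3099 CPM in GelNB-CH against 2748 CPM in Matrigel) came last in both. Every subtype had a GelNB-CH to Matrigel ratio above 1, between 1.13 in cycling cells and 1.35 in cells without a subtype. Weighting the subtypes to the same make-up gave 1.25 for all otic cells.

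**Figure D2:**
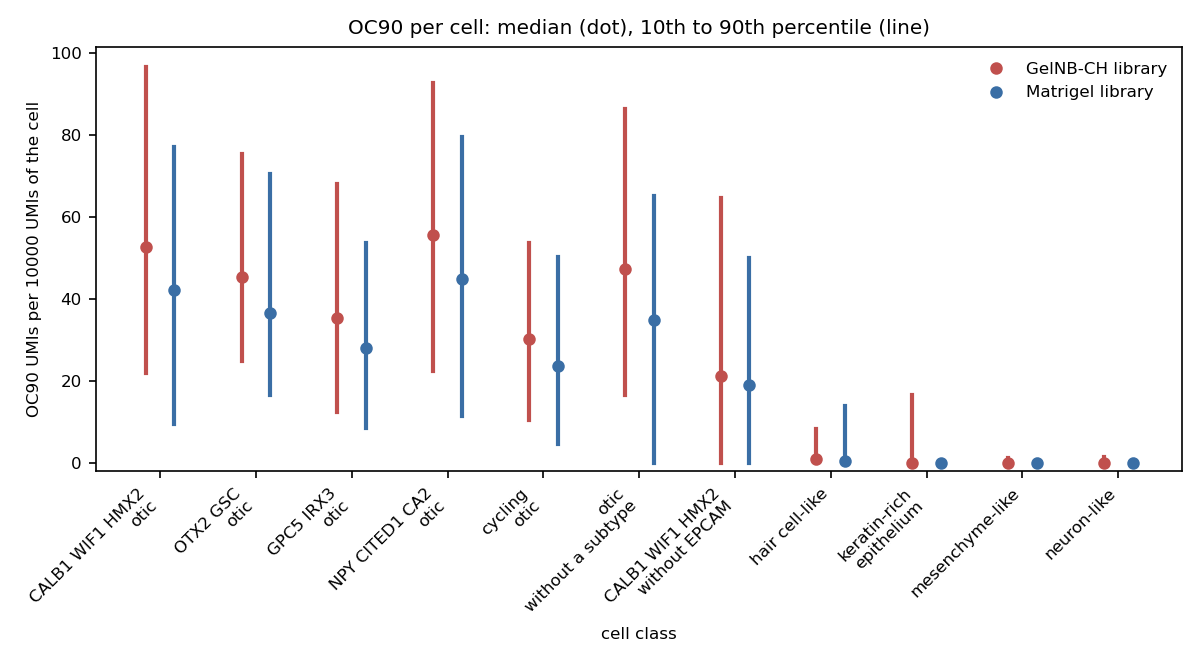
OC90 UMIs per 10000 UMIs of the cell (vertical axis) by cell class (horizontal axis), with the median as a dot and the 10th to 90th percentile of cells as a line, for the GelNB-CH and the Matrigel library side by side. Every otic subtype has its GelNB-CH median above its Matrigel median, and the medians of keratin-rich cells are 0 in both libraries.

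Outside the EPCAM-positive otic cells, OC90 was also high in a small class with at least 2 of CALB1, WIF1 and HMX2 but no EPCAM UMI (134 GelNB-CH cells and 82 Matrigel cells). It reached 2303 CPM there in GelNB-CH and 2024 CPM in Matrigel, with 83.6% and 89.0% of these cells detected. BRICD5 was at 121 CPM in the GelNB-CH cells of this class and 118 CPM in the Matrigel cells, within the range of the otic subtypes, while OTOGL was at 26.3 CPM and 5.92 CPM, below all otic subtypes. Cells that no class rule placed also held OC90. Those with EPCAM had 1518 CPM (13025 UMIs) in GelNB-CH against 531 CPM (4732 UMIs) in Matrigel. Those without EPCAM had 595 CPM (21952 UMIs) in GelNB-CH against 382 CPM (8315 UMIs) in Matrigel. OC90 in the keratin-rich cells was uneven. It had 507 UMIs (418 CPM) in 37 of 83 GelNB-CH cells, with up to 92 in a cell, against 10 UMIs (18.1 CPM) in 9 of 27 Matrigel cells, where no cell had over 2. A few GelNB-CH cells carried much of this level: 9 of the 83 lay outside the expression cluster of most keratin-rich cells and held 241 of the 507 UMIs (2407 CPM). The 74 inside the cluster had 266 UMIs (239 CPM), against 9 UMIs (18.2 CPM) in 24 Matrigel cells. The Matrigel level of 18.1 CPM was close to the 16.4 CPM of the Matrigel non-otic classes, and the GelNB-CH level of 418 CPM was above the 36.1 CPM of the GelNB-CH non-otic classes.

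OTOL1, the otolin-1 gene, was sparse in otic cells and high in those that had it. It gave 43.9 CPM (2973 UMIs) in GelNB-CH otic epithelium against 37.4 CPM (1566 UMIs) in Matrigel otic epithelium, a ratio of 1.17 [1.10 to 1.25]. The UMIs came from 377 GelNB-CH cells (7.30%) and 253 Matrigel cells (12.9%), or 4.62% and 7.21% of cells after thinning, so the GelNB-CH share was lower while the GelNB-CH level was higher. Single otic cells held up to 154 OTOL1 UMIs in GelNB-CH and up to 68 in Matrigel. In cells of 8000 to 16000 UMIs the ratio turned to 0.803.

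Of the otic OTOL1 UMIs, 1585 of 2973 in GelNB-CH and 708 of 1566 in Matrigel came from 1 expression cluster, which also held most keratin-rich cells and was led by CXCL14, SPRR1B and KRT15. Of the 10 leading genes of this cluster 2 were markers of keratin-rich epithelium and 0 were otic markers, although each of its otic cells had EPCAM and otic marker UMIs. The 273 GelNB-CH otic cells and 139 Matrigel otic cells in it had 435 and 268 CPM of OTOL1, while the otic cells of all other clusters had 21.6 CPM in GelNB-CH against 21.9 CPM in Matrigel. Without that cluster the library ratio of OTOL1 was 0.990, while that of OC90 was 1.30, that of OTOGL 1.47, that of SPARCL1 1.40 and that of OTOG 0.834. Besides OTOL1, the genes that most set these cells apart from other otic cells were ADAMTSL1, SULT1E1, DLK1 and SEMA3E. They held less OC90 than other otic cells did, at 1705 CPM in GelNB-CH against 1760 CPM in Matrigel. In the keratin-rich cells themselves OTOL1 had 0 UMIs in 83 GelNB-CH cells and in 27 Matrigel cells, where a count of 0 allows up to 2.47 CPM in GelNB-CH against 5.44 CPM in Matrigel.

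Among subtypes, GPC5 IRX3 cells had 66.0 CPM of OTOL1 in GelNB-CH and 47.7 CPM in Matrigel, and cycling cells had 55.6 CPM in GelNB-CH against 33.6 CPM in Matrigel. CALB1 WIF1 HMX2 cells were low, with 10.1 CPM in GelNB-CH against 14.1 CPM in Matrigel. In NPY CITED1 CA2 cells the level was 22.8 CPM in GelNB-CH against 9.25 CPM in Matrigel, but 1 GelNB-CH cell held 154 of the 228 UMIs, and without the highest cell of each library the levels were 7.43 and 7.42 CPM. In OTX2 GSC cells it was 12.3 CPM in GelNB-CH against 28.4 CPM in Matrigel, and there 1 Matrigel cell held 49 of the 57 UMIs. Without the highest cell of each library those levels were 9.67 CPM in GelNB-CH against 4.08 CPM in Matrigel. The library differences of OTOL1 in both subtypes thus rested on single cells, and that in OTX2 GSC cells turned round without them.

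Glia-like cells, named from CDH19, FOXD3, ERBB3 and other Schwann and satellite glia markers, had more OTOL1 than the otic epithelium in both libraries. Those without GPR17 had 151 CPM (990 UMIs, 121 of 782 cells) in GelNB-CH against 155 CPM (3550 UMIs, 277 of 1576 cells) in Matrigel, a ratio of 0.971 [0.904 to 1.04]. Thinned to 5000 UMIs, 14.2% of these GelNB-CH cells and 14.5% of these Matrigel cells had a UMI. Over the class the level was alike in both libraries, and it was carried by a minority of cells with many UMIs. Of the positive cells, 77.7% in GelNB-CH and 81.6% in Matrigel had 2 or more, with up to 79 in GelNB-CH and 102 in Matrigel. The level was uneven over clusters with these cells as the largest class, taking all cells of a cluster. The cluster led by ZNF804B and CAV1 had 230 CPM in GelNB-CH against 228 CPM in Matrigel. The one led by HSPB2 and ITGA1 had 22.1 CPM in GelNB-CH against 22.3 CPM in Matrigel. The one led by ANLN and ASPM had 212 CPM in GelNB-CH against 52.9 CPM in Matrigel. GPR17-positive glia-like cells had 57.3 CPM in GelNB-CH against 94.5 CPM in Matrigel.

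Other non-otic classes were lower, under the 10 CPM needed for the 2-fold comparison. Cartilage-like cells had 9.71 CPM of OTOL1 (176 UMIs) in GelNB-CH against 3.39 CPM (30 UMIs) in Matrigel. This was a ratio of 2.87 [1.94 to 4.38], in a class where 2.03% of genes reaching 10 CPM were past 2-fold. Mesenchyme-like cells ran the other way, with 1.90 CPM in GelNB-CH against 4.10 CPM in Matrigel (0.616% and 1.17% of cells, or 0.399% and 0.566% thinned). Neuron-like cells had 4.14 CPM in GelNB-CH against 6.03 CPM in Matrigel, a ratio of 0.686 [0.433 to 1.07] that covers 1. CNS progenitor-like cells had 0 UMIs in GelNB-CH and 3 UMIs in Matrigel. Set against their OC90 counts, the GPR17-negative glia-like cells had 290 times as much OTOL1 per OC90 UMI as the otic epithelium in GelNB-CH and 861 times as much in Matrigel. Glia-like cells numbered 1036 in GelNB-CH and 2230 in Matrigel, and over all kept cells OTOL1 was 29.4 CPM in GelNB-CH against 50.1 CPM in Matrigel, the opposite order to the otic epithelium.

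**Figure D3:**
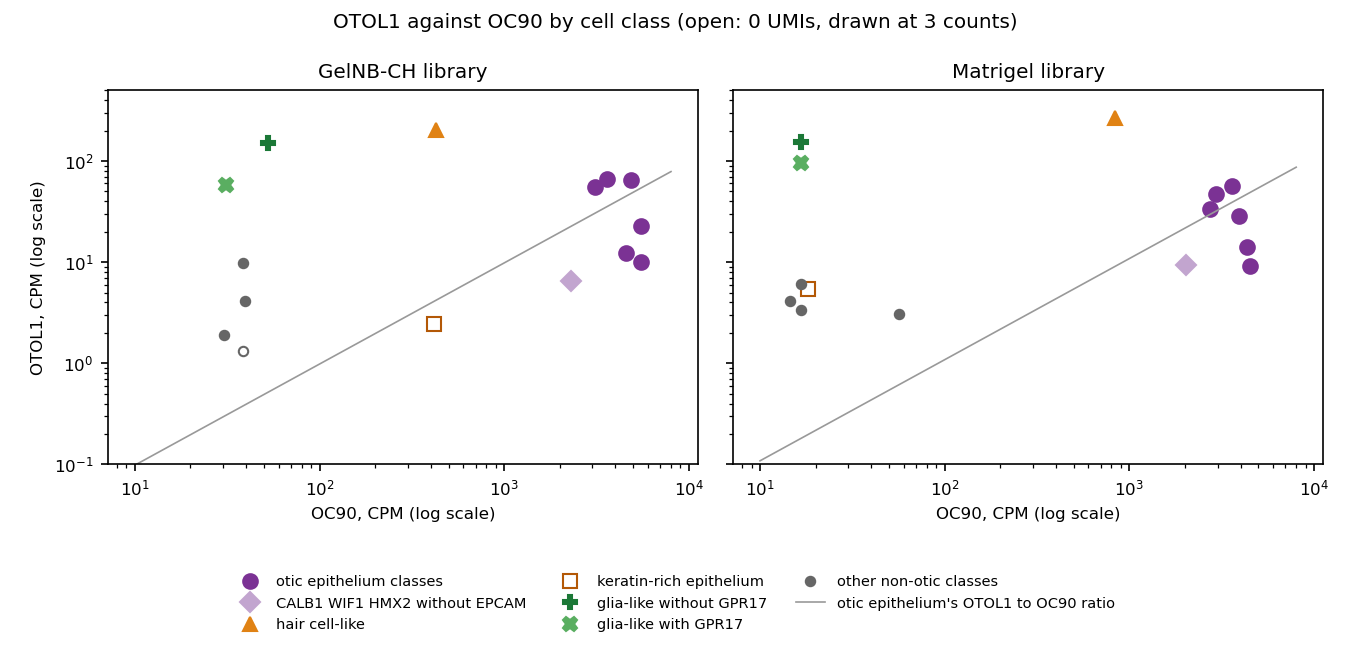
OTOL1 against OC90 in CPM, both on log axes, 1 point per cell class, in the GelNB-CH library (left) and the Matrigel library (right); the grey line is the otic epithelium's OTOL1 to OC90 ratio, and open points have 0 UMIs and are drawn at 3 counts. The glia-like points lie far above the line, near 151 CPM of OTOL1 in GelNB-CH and 155 CPM in Matrigel for cells without GPR17.

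SPARCL1 had its highest level outside the otic epithelium. In otic epithelium it had 37.4 CPM (2534 UMIs) in GelNB-CH against 28.7 CPM (1203 UMIs) in Matrigel, a ratio of 1.30 [1.22 to 1.40], and was found in 24.0% of GelNB-CH cells and 15.98% of Matrigel cells (13.0% and 6.28% thinned). The keratin-rich cells gave 4.82% in GelNB-CH and 7.41% in Matrigel, at medians of 13396 and 20294 UMIs. CNS progenitor-like cells had the highest level, 261 CPM (591 UMIs) in 215 GelNB-CH cells and 577 CPM (563 UMIs) in 49 Matrigel cells, and neuron-like cells had 32.0 CPM in GelNB-CH against 127 CPM in Matrigel. These library ratios, 0.452 [0.402 to 0.508] and 0.252 [0.220 to 0.289], were past 2-fold, as were 9.16% of all genes in CNS progenitor-like cells and 7.41% in neuron-like cells. The neuron-like cells of the libraries lay mostly in different clusters: 665 of 958 GelNB-CH cells were in a cluster led by MYT1L and NSG2, and 412 of 549 Matrigel cells in one led by THSD7B, PPP1R17 and ANKFN1. In the MYT1L cluster they had 7.08 CPM of SPARCL1 (34 UMIs) in GelNB-CH against 13.1 CPM (16 UMIs) in Matrigel, a ratio of 0.540 [0.290 to 1.05] that covers 1. In the THSD7B cluster they had 58.0 CPM in GelNB-CH against 128 CPM in Matrigel, a ratio of 0.454 [0.385 to 0.534], so within clusters the libraries were closer than over the whole class. With Leiden classes in place of marker classes, neuron-like cells had 57.4 CPM in GelNB-CH against 271 CPM in Matrigel. In the 2 clusters that held most CNS progenitor-like cells, the ratios of these cells were 0.388 and 0.387. Mesenchyme-like cells had 45.8 CPM in GelNB-CH against 44.99 CPM in Matrigel over the whole class. By cluster they were not alike, in a split made after seeing the data. Every cluster with mesenchyme-like cells as its largest class had more SPARCL1 in GelNB-CH, over all cells of the cluster. The one led by OGN and COL6A3 had 111 CPM in GelNB-CH against 81.0 CPM in Matrigel. The one led by RUNX2 and COL3A1 had 15.1 CPM in GelNB-CH against 11.4 CPM in Matrigel.

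Within the otic epithelium the direction of SPARCL1 was not the same in every subtype. CALB1 WIF1 HMX2 cells had 55.1 CPM in GelNB-CH against 21.6 CPM in Matrigel, a ratio of 2.55 [1.97 to 3.34], in a class where 2.78% of genes were past 2-fold. Cells with the same markers but no EPCAM UMI went the opposite way, with 34.7 CPM (37 UMIs) in GelNB-CH against 85.5 CPM (101 UMIs) in Matrigel, a ratio of 0.406 [0.271 to 0.597]. OTX2 GSC cells had 39.7 CPM in GelNB-CH against 18.0 CPM in Matrigel, 2.21-fold apart, where 3.42% of genes were past 2-fold. Cycling cells ran the other way, with 38.5 CPM in GelNB-CH against 51.2 CPM in Matrigel, and NPY CITED1 CA2 cells were lowest, with 12.4 CPM in GelNB-CH against 9.75 CPM in Matrigel. Apart from SPARCL1, only OTOL1 of the 7 genes passed 2-fold in an otic subtype, in OTX2 GSC cells (background 3.42%) and in NPY CITED1 CA2 cells (2.05%), on the single cells described. None of the 7 did so in GPC5 IRX3 cells, cycling cells or otic cells without a subtype, where 1.76%, 2.59% and 2.18% of genes were past 2-fold.

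The otogelin pair differed between the libraries in opposite directions. OTOGL had 231 CPM (15670 UMIs) in GelNB-CH otic epithelium against 164 CPM (6873 UMIs) in Matrigel, a ratio of 1.41 [1.37 to 1.45]. OTOG had 40.5 CPM (2744 UMIs) in GelNB-CH against 47.2 CPM (1978 UMIs) in Matrigel, a ratio of 0.857 [0.809 to 0.909]. Over all alternative settings the OTOGL ratio lay between 1.24 and 1.51 and the OTOG ratio between 0.727 and 0.918, so neither crossed 1. OTOGL was found in 76.8% of GelNB-CH otic cells and 73.3% of Matrigel otic cells (57.5% and 44.9% thinned), against 2.07% and 2.06% of the non-otic cells. OTOG had a UMI in 32.8% of GelNB-CH otic cells and 49.0% of Matrigel otic cells (16.7% and 20.0% thinned), against 3.84% and 5.46% of non-otic cells.

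OTOGL was highest in OTX2 GSC cells, at 307 CPM in GelNB-CH against 275 CPM in Matrigel, and in GPC5 IRX3 cells, at 283 CPM in GelNB-CH against 216 CPM in Matrigel. It was lowest in NPY CITED1 CA2 cells, at 152 CPM in GelNB-CH against 84.9 CPM in Matrigel. OTOG in GPC5 IRX3 cells was 59.9 CPM in GelNB-CH against 57.7 CPM in Matrigel, values whose intervals overlapped, while in OTX2 GSC cells it was 41.1 CPM in GelNB-CH against 66.8 CPM in Matrigel and in CALB1 WIF1 HMX2 cells 31.2 CPM in GelNB-CH against 49.0 CPM in Matrigel. NPY CITED1 CA2 cells had the lowest OTOG value, 29.1 CPM in GelNB-CH against 25.4 CPM in Matrigel. In GelNB-CH its interval overlapped that of CALB1 WIF1 HMX2 cells. Both otogelin genes were thus low in the subtype with the highest OC90 value. CALB1 WIF1 HMX2 cells, whose OC90 interval overlapped that of this subtype in GelNB-CH, had 216 CPM of OTOGL in GelNB-CH against 159 CPM in Matrigel.

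Keratin-rich cells kept OTOGL but hardly OTOG. OTOGL stood at 78.3 CPM (95 UMIs, 32 of 83 cells) in GelNB-CH and at 83.4 CPM (46 UMIs, 13 of 27 cells) in Matrigel, whereas OTOG had 1 UMI in the GelNB-CH cells and 0 in the Matrigel cells. Mesenchyme-like cells had OTOG at 7.095 CPM (217 UMIs) in GelNB-CH against 8.61 CPM (254 UMIs) in Matrigel. Relative to OC90, that was 25.9 times the otic ratio in GelNB-CH and 43.2 times in Matrigel.

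**Figure D4:**
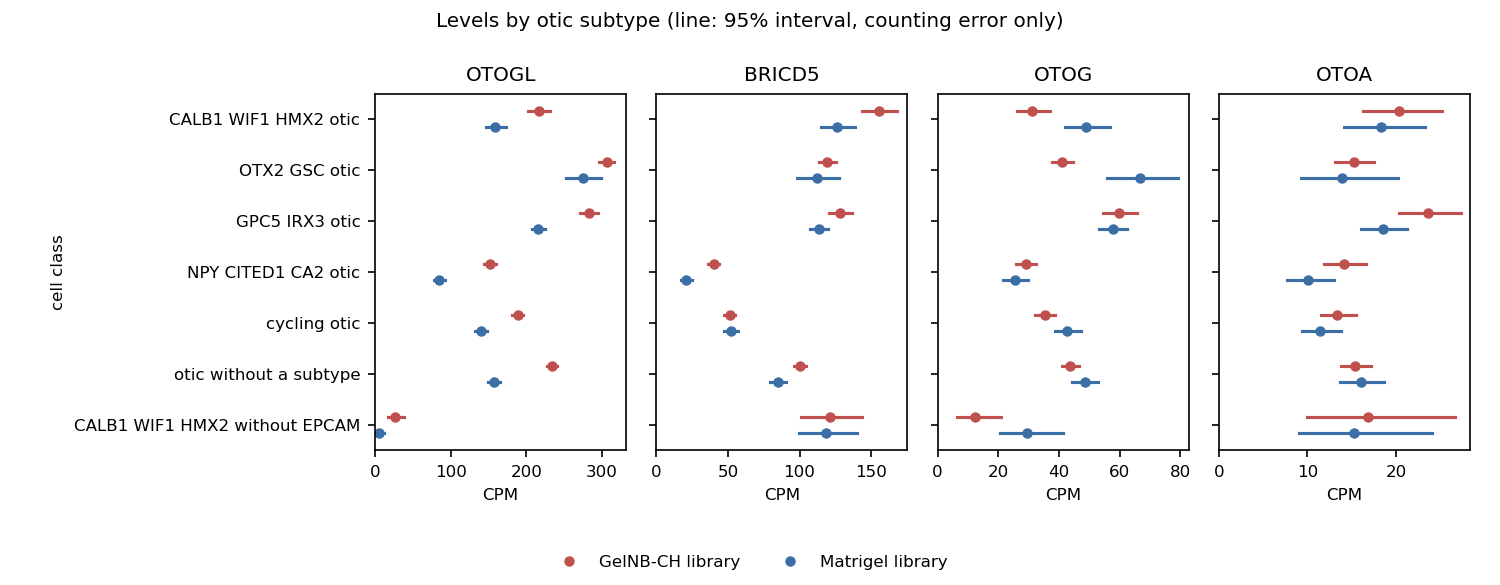
Levels of OTOGL, BRICD5, OTOG and OTOA in CPM (horizontal axes) by cell class (vertical axis) in the GelNB-CH and the Matrigel library, with lines for 95% intervals from counting error. OTOGL is higher in GelNB-CH in each otic subtype, OTOG is higher in Matrigel in the OTX2 GSC and CALB1 WIF1 HMX2 subtypes, and BRICD5 is low in NPY CITED1 CA2 cells of both libraries.

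BRICD5 was high in 3 otic subtypes and low in NPY CITED1 CA2 and cycling cells. In all otic epithelium it had 91.9 CPM (6232 UMIs) in GelNB-CH against 80.7 CPM (3382 UMIs) in Matrigel, a ratio of 1.14 [1.09 to 1.19], which turned to 0.850 in cells of 8000 to 16000 UMIs. CALB1 WIF1 HMX2 cells had the highest value, with 155 CPM in GelNB-CH against 126 CPM in Matrigel. GPC5 IRX3 and OTX2 GSC cells had 128 and 119 CPM in GelNB-CH and 114 and 112 CPM in Matrigel, neighbours whose intervals overlapped in both libraries. In Matrigel the interval of CALB1 WIF1 HMX2 cells overlapped those of both neighbours as well. NPY CITED1 CA2 cells were lowest, with 40.0 CPM in GelNB-CH against 20.7 CPM in Matrigel, a ratio of 1.93 [1.57 to 2.38]. Cycling cells had 51.2 CPM in GelNB-CH against 52.0 CPM in Matrigel. A UMI was seen in 49.4% of GelNB-CH otic cells and 52.8% of Matrigel otic cells (31.0% and 28.8% thinned) and in 1.23% and 2.09% of mesenchyme-like cells.

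OTOA, the attachment protein gene of non-sensory cells, was low and even. It had 16.02 CPM (1086 UMIs) in GelNB-CH otic epithelium against 14.9 CPM (624 UMIs) in Matrigel, a ratio of 1.08 [0.974 to 1.19] that covers 1 and that was 0.912 in cells of 8000 to 16000 UMIs. After thinning, 6.67% of GelNB-CH cells and 6.69% of Matrigel cells had a UMI, against 0.585% and 0.494% of non-otic cells. Its subtypes ranged from 13.4 CPM in cycling cells to 23.7 CPM in GPC5 IRX3 cells in GelNB-CH, and from 10.1 CPM in NPY CITED1 CA2 cells to 18.5 CPM in GPC5 IRX3 cells in Matrigel. The next subtype, CALB1 WIF1 HMX2, had 20.4 CPM in GelNB-CH against 18.3 CPM in Matrigel, and its intervals overlapped those of GPC5 IRX3 cells in both libraries.

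The tectorins were at or near background. TECTA had 3.16 CPM (214 UMIs) in GelNB-CH otic epithelium against 1.98 CPM (83 UMIs) in Matrigel, beside 1.73 and 1.87 CPM in the non-otic classes of these libraries. The GelNB-CH level was raised in the otic cells of the CXCL14 and KRT15 cluster, with 64 UMIs (17.6 CPM) in 28 of 273 cells, where the Matrigel otic cells of that cluster had 8 UMIs (3.03 CPM) in 7 of 139 cells. TECTB had 15 UMIs in 14 of 5162 GelNB-CH otic cells and 1 UMI in 1959 Matrigel otic cells, which at this depth is too little to set one library against the other.

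STRC was a gene of the few hair cell-like cells, which were named from ATOH1, POU4F3, MYO7A and 15 other markers. It had 19 UMIs (78.9 CPM) in 9 of 16 GelNB-CH cells and 20 UMIs (51.5 CPM) in 9 of 12 Matrigel cells, with at most 4 UMIs in a cell of either library. These cells held 38.0% of all 50 STRC UMIs in GelNB-CH and 37.0% of all 54 in Matrigel. The rest was thin: the otic epithelium had 0.27 CPM (18 UMIs) in GelNB-CH against 0.33 CPM (14 UMIs) in Matrigel. The intervals of the 2 hair cell-like levels, 47.5 to 123 CPM in GelNB-CH and 31.5 to 79.6 CPM in Matrigel, overlapped. The same cells had OC90 at 428 CPM in GelNB-CH against 832 CPM in Matrigel, far below the otic epithelium, and 1 Matrigel cell gave 180 of the 323 Matrigel UMIs. OTOL1 was at 203 CPM in GelNB-CH against 265 CPM in Matrigel, from 3 cells of each library.

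**Figure D5:**
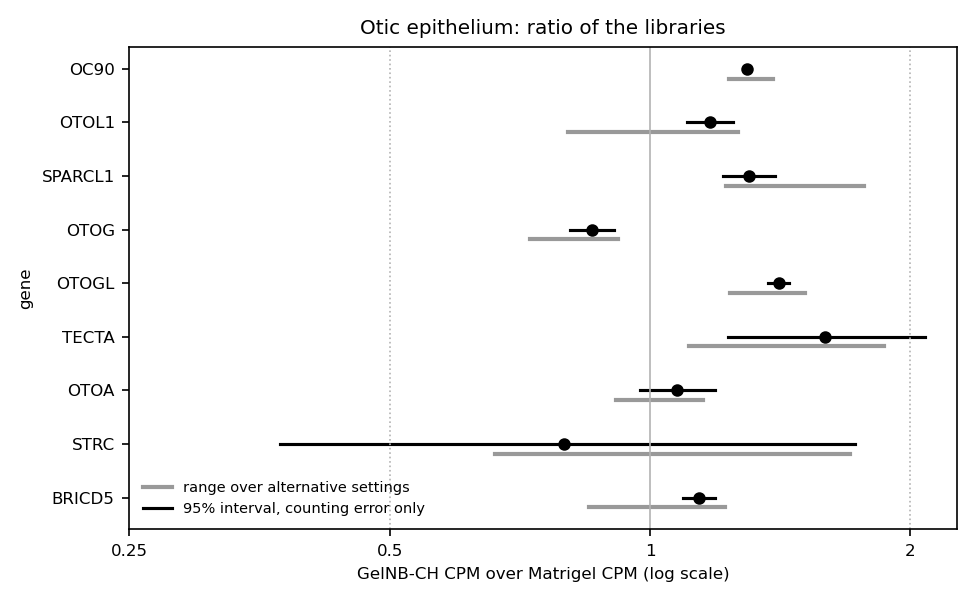
Ratio of the GelNB-CH level to the Matrigel level in otic epithelium (horizontal axis, log scale) for each gene drawn (vertical axis), with the 95% interval from counting error in black and the range over alternative settings in grey; dotted lines mark 2-fold. The grey ranges of OC90, OTOGL, SPARCL1 and TECTA stay above 1 and that of OTOG below 1, while those of OTOL1, OTOA, BRICD5 and STRC cross 1. TECTB is not drawn.

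Partner genes were counted from lists chosen with earlier results of these data known. Of 9 genes for otoconia assembly and mineral supply in mice, 4 reached 10 CPM in otic epithelium, and 1 of these 4, SLC26A4, was past 2-fold, where 1.96% of all genes tested were. SLC26A4, the anion exchanger pendrin, had 15.3 CPM (1037 UMIs) in GelNB-CH against 3.53 CPM (148 UMIs) in Matrigel, a ratio of 4.33 [3.64 to 5.18]. It was highest in OTX2 GSC cells, 32.4 CPM in GelNB-CH against 15.5 CPM in Matrigel, a subtype with a larger share of the GelNB-CH otic cells. In GPC5 IRX3 cells it was 5.39 CPM in GelNB-CH against 1.30 CPM in Matrigel. CYBA, a subunit of NADPH oxidases, had 60.1 CPM in GelNB-CH against 47.7 CPM in Matrigel, SPARC had 381 CPM in GelNB-CH against 321 CPM in Matrigel, and SPP1, the osteopontin gene, had 162 CPM in GelNB-CH against 192 CPM in Matrigel. Otopetrin-1 (OTOP1), a proton channel needed for otoconia in mice, had 13 UMIs in GelNB-CH and 7 in Matrigel, and NOX3, the oxidase needed for them, had 1.59 CPM in GelNB-CH against 2.36 CPM in Matrigel.

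Of 8 further tectorial membrane and cupula genes, 6 reached 10 CPM, all of them collagens, and 0 of the 6 were past 2-fold, where 1.96% of all genes tested were. Of the 6, 2 were higher and 4 lower in GelNB-CH, where 46.9% of all genes tested were higher. COL9A1 had 271 CPM in GelNB-CH against 165 CPM in Matrigel, although its partner chain COL9A2 had 131 CPM in GelNB-CH against 162 CPM in Matrigel. COL2A1, the fibril-forming chain, had 550 CPM in GelNB-CH against 627 CPM in Matrigel. Cartilage-like cells also make these collagens, and non-otic classes had 824 CPM of COL9A1 in GelNB-CH and 340 CPM in Matrigel. COL9A1 is among the markers used to name cartilage-like cells, so its high level outside the otic epithelium is partly set by the class rule. The tectorial membrane gene CEACAM16 had 0 UMIs in the otic epithelium of both libraries, and ZPLD1, the gene of a cupula protein in fish and mice, had 39 UMIs in GelNB-CH and 16 in Matrigel. Of 3 other secreted inner ear proteins, COCH had 11.5 CPM in GelNB-CH against 9.71 CPM in Matrigel, and OTOS had 9.22 CPM in GelNB-CH against 6.04 CPM in Matrigel.

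Genes with the most similar pattern were ranked by Pearson's r of log2(CPM + 1) over 27 profiles of a class in a library, among 10554 genes. The profiles share libraries, depth and the contrast of otic with non-otic cells, so r is a description. OC90 was most like LMX1A (r = 0.990) and SPX (r = 0.984), both of them markers used to find otic cells, then PLPP2, ROCR and CLDN3. OTOG was most like USH1C (r = 0.973) and KLHL14, and OTOGL was most like PRSS8 (r = 0.985), GRHL2 and CGN. MYOZ1 (r = 0.841) and SEMA3B (r = 0.818) were among the 5 genes most similar to OTOL1. OTOA was most like FTCDNL1 (r = 0.962), BRICD5 most like ROCR (r = 0.975) and HDC, and SPARCL1 most like SFXN1 (r = 0.903) and CDH10.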

How the data were processed

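The authors deposited, per the file headers, a filtered matrix of raw UMI counts per gene and barcode for each library. Cell Ranger made them, given as 7.1.0 per the file headers and as 4.0.0 per the labels' protocols; STAR and GRCh38 are named in the submitters' processing notes. The sources used here do not say whether intronic reads were counted.

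Barcodes with at least 1000 genes and at most 15% mitochondrial UMIs were kept, and doublets called by Scrublet (14.2% of GelNB-CH barcodes and 6.55% of Matrigel barcodes) were removed, with Scanpy 1.11.5 under Python 3.11.15. Classes came from marker UMIs: epithelial cells needed 1 EPCAM UMI and 3 markers, cycling cells 5 of 10 cycling genes, subtypes 2 marker UMIs and 2 times the next subtype's scaled share, hair cell-like cells 8 of 18 markers, and non-otic cells no EPCAM and 50% of a list. EPCAM-positive cells that met no rule were 782 in GelNB-CH and 510 in Matrigel, and other unplaced cells were 4815 and 1859; they are in no class. Clusters (25, joint Leiden) were used only where named. In otic epithelium 37.9% of GelNB-CH cells lay in the cluster led by NPY, CLDN8 and SPX and 27.2% in that led by KCNIP4 and OTX2, while 26.8% of Matrigel cells lay in that led by GPC5 and IRX3 and 22.2% in the NPY cluster. A cluster led by the stress genes GDF15, TRIB3 and CDKN1A held 2.00% and 6.43% of them.

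Summed UMIs were scaled to CPM (NumPy 2.4.6, pandas 2.3.3), with exact Poisson and binomial intervals (SciPy 1.17.1). Shares were also taken after thinning to 5000 UMIs, with 141 otic cells of GelNB-CH and 31 of Matrigel too shallow for it. Genes reaching 10 CPM in either library were compared at 2-fold. PCR duplicates were collapsed by UMI, and intervals cover counting error only. Alternatives changed filters, doublets, the EPCAM minimum, classes, depth, subtype make-up and scaling (edgeR 4.0.16 TMM and DESeq2 1.42.0 size factors under R 4.3.3, used for scaling alone). Simulated Poisson counts were used to try the 2-fold rule and the ratio interval. The marker rule was tried only for otic, mesenchyme-like, neuron-like and hair cell-like cells, simulated from the same marker lists. Other steps were not tried on simulated data. All 10 genes are named, partner genes if they reached 5 CPM or help to read a list, and for similar patterns the leading genes of the 5 most similar; TECTA in the keratin cluster was singled out after its values were seen. The 10 genes, the lists and the class rule were chosen with earlier results of these data known. A gene of similar pattern to OTOL1 is not reported here.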

Additional observations from a re-analysis of the deposited data

Results flagged for a closer look

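Each item here is a gene whose library ratio ran in opposite directions in different cell classes, with intervals clear of 1. The highest and the lowest such ratio are given, and the intervals do not allow for that choice. Of 9 classes compared, OC90 had 8 above 1 and 1 below, and OTOL1 had 4 above and 2 below. SPARCL1 had 4 above and 4 below, of 11. OC90 in the non-otic classes was left out, since its values there are taken as background. The differences between classes were not tested, since there was 1 library per group, and causes were not tested.

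OC90 was 23.0 times as high in GelNB-CH as in Matrigel keratin-rich cells [12.4 to 48.3], from 507 GelNB-CH UMIs and 10 Matrigel UMIs, whereas in hair cell-like cells its ratio was 0.514 [0.407 to 0.643], from 103 GelNB-CH UMIs and 323 Matrigel UMIs. Of the GelNB-CH keratin-rich UMIs, 241 came from 9 cells outside the cluster of most keratin-rich cells, and inside it the ratio was 13.1 [6.82 to 29.04]. One cell held 18.1% of the GelNB-CH keratin-rich UMIs and one cell held 55.7% of the Matrigel hair cell-like UMIs. Without the highest cell of each library the hair cell-like levels were 306 CPM in GelNB-CH against 451 CPM in Matrigel.

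OTOL1 had a ratio of 2.46 [1.83 to 3.37] in NPY CITED1 CA2 otic cells and of 0.434 [0.318 to 0.598] in OTX2 GSC otic cells. One cell held 67.5% of the GelNB-CH UMIs in the first subtype and one cell held 86.0% of the Matrigel UMIs in the other.

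SPARCL1 had a ratio of 2.55 [1.97 to 3.34] in CALB1 WIF1 HMX2 otic cells and of 0.252 [0.220 to 0.289] in neuron-like cells. No cell held more than 14.1% of the UMIs of either class in either library. The neuron-like cells of the libraries lay mostly in different clusters, and within the 2 main ones the ratio was 0.540 [0.290 to 1.05] and 0.454 [0.385 to 0.534]. These splits by cluster were chosen after seeing the data.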

How the results depend on the processing

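The OC90 ratio in otic epithelium, 1.30, stayed above 1 under each alternative run: it was 1.23 with called doublets kept, 1.27 with at least 2 EPCAM UMIs, 1.37 with Leiden classes, 1.37 with TMM factors, 1.39 with DESeq2 size factors, 1.28 in cells of 8000 to 16000 UMIs and 1.25 with the same make-up of subtypes. Ratios that crossed 1 did so in cells of 8000 to 16000 UMIs (OTOL1 0.803, OTOA 0.912, BRICD5 0.850 and STRC 1.70) and, for OTOL1, without the cluster of most keratin-rich cells (0.990), an alternative chosen after seeing the data, as was leaving out barcodes found in both libraries; the causes were not tested. TECTB had no value in the depth band. The count of genes 2-fold apart was 0, and 1 with no minimum CPM (TECTB); it was 0 under the 9 other alternatives. With Leiden classes OC90 was 4175 CPM in GelNB-CH against 3046 CPM in Matrigel otic epithelium, and OTOL1 was 129 CPM in GelNB-CH against 136 CPM in Matrigel glia-like cells without GPR17. Thinning moved the share of otic cells with OC90 to 98.3% in GelNB-CH and 93.2% in Matrigel. Over all 10 genes, 86 alternative ratios stayed within the counting interval, 28 moved outside it in the same direction and 5 crossed 1. No paired analysis was possible because each group has 1 library and no test was made. The depth of 8558 UMIs per GelNB-CH cell and 14002 per Matrigel cell limits TECTA, TECTB and STRC, and the lack of replicates limits every comparison of the libraries.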
